A study of Mus musculus with 2 samples.

Results

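The nuclear-encoded subunits of respiratory chain complexes II to V and cytochrome c were followed in adult mouse heart muscle cells. They were chosen by name: every protein-coding gene called Sdha to Sdhd, Uqcr-, Cyc1, Cycs, Cox4 to Cox8 or Atp5-. This gave 47 genes, all with a row in both count tables of 24522 and 22679 gene identifiers. Complex II had 4 of them, complex III 9, cytochrome c 1, complex IV 16 and complex V 17. Cox4i1 and Cox8c were not analysed here.

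Single wild type C57BL/6 cardiomyocytes had been sorted by large-particle flow cytometry, and their polyadenylated RNA was counted with unique molecular identifiers (UMIs) by SCRB-seq. In the multichamber study the cells came from adult mice of about 3 months, were not fixed and carried a chamber label: LA and RA for the atria, LV and RV for the ventricles, L and R standing for left and right. In the live and fixed study, adult ventricular cells were sorted after fixation in ethanol (fixed) or before it (live). A cell was kept if it held 1000 gene UMIs and 500 genes or more: 56 of 71 LA, 44 of 69 RA, 91 of 96 LV, 90 of 96 RV, 35 of 36 fixed and 31 of 36 live cells. Neither study named animals, so the cells of a label formed 1 pool, no group had replicates and no test was possible. The intervals below are exact 95% Clopper-Pearson intervals and cover counting error only. The multichamber cells were spread over 4 libraries, A to D, whose values are given as the spread within a pool.

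Complexes III and IV pass electrons from ubiquinol through cytochrome c to oxygen and pump protons out of the mitochondrial matrix, and complex V, the ATP synthase, makes ATP as the protons return. Complex II oxidises succinate in the citric acid cycle, feeds its electrons to ubiquinone and is the only one of these complexes with no mitochondrially encoded subunit. Heart muscle depends on this chain for nearly all of its ATP and uses muscle-type forms of several complex IV subunits.

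The sequences upstream of the transcription start bear on how such genes are switched on together, so those of 5 members are shown. Sdha is the flavoprotein of complex II, Cox6a1 a ubiquitous subunit of complex IV, Cox7a1 and Cox8b muscle-type subunits of complex IV, and Atp5g3 a source of the ATP synthase c ring. Each is the 250 bases before the RefSeq start site in GRCm38.p6, written 5′ to 3′ on the gene's strand. Capitals mark matches on either strand to GCGCNNGCGC (the core of the motif of NRF1, a factor known for respiratory chain genes), CCGGAAG (GABPA, also called NRF2) or TCAAGGTCA (the estrogen-related receptors, ERR).
Sdha (chr13:74350241-74350490, minus strand): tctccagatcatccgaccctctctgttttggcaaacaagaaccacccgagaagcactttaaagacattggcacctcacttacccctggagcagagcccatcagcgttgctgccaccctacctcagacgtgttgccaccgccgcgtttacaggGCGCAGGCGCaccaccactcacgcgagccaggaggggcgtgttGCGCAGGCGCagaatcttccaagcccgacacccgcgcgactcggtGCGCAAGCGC
Cox6a1 (chr5:115348959-115349208, minus strand): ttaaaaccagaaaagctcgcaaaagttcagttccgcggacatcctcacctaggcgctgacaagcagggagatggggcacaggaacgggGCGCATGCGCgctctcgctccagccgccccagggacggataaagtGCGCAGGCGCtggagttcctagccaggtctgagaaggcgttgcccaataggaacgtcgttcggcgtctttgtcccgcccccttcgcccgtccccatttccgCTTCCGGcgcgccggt
Cox7a1 (chr7:30183921-30184170, plus strand): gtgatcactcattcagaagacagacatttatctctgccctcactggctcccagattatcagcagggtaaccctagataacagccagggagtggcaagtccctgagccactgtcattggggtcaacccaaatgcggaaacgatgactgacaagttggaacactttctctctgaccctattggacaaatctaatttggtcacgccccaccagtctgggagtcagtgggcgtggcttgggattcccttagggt
Cox8b (chr7:140900447-140900696, minus strand): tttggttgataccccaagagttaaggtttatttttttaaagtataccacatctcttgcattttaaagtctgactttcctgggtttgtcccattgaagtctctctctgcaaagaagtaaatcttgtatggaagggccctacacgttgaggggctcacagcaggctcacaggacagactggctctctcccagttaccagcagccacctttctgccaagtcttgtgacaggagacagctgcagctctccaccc
Atp5g3 (chr2:73911327-73911576, minus strand): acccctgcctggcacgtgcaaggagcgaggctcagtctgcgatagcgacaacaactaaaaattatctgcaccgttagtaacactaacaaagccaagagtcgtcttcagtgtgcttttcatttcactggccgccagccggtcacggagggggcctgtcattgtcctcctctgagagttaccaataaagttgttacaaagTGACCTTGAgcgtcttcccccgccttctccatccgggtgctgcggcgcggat

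Of the 47 members, 35 had such a sequence in the RefSeq table. Atp5c1, Atp5d and Atp5j had a sequence for each of several start sites, and a match in any of these counted. The NRF1 letters were present in 7 of the 35 (20.0%), against 5.64% of 27025 genes with a sequence of the same length. The GABPA letters were present in 9 of the 35 members (25.7%), against 7.83% of all genes. The ERR letters were present in 2.86% of the members, which is Atp5g3 alone, against 0.422% of all genes. Another pair of motifs was searched on both strands: AAGATGGC (YY1) was present in 2.86% of the members, against 1.83% of all genes, and GGGCGG (SP1) in 28.6% of the members, against 35.4% of all genes. Matches of different motifs may overlap. The NRF1 letters read the same on both strands, and each place was counted once. Sdha held 3 NRF1 matches and Cox6a1 held 2 with 1 GABPA match. Cox7a1 and Cox8b held no match to any of the 5 motifs, and neither did Cox8a, the ubiquitous partner of Cox8b. A match is a string of letters in a window and says nothing about binding.

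The label of each pool was checked against marker genes. Myocyte markers (Myl2, Myl3, Myh6, Tnnt2, Tnni3 and Actc1) made up 5.19% of the nuclear-encoded RNA of LA and 6.61% of that of RA cells. They made up 5.70% in LV and 5.82% in RV cells, and their sum does not separate atrial from ventricular myocytes. All 4 atrial markers (Nppa, Sln, Myl4 and Myl7) were at 0 in the RA pool, and Nppa was at 0 in the LA pool, where the 4 together made up 0.010%, against 0.0008% in LV and 0.0006% in RV cells. Endothelial, fibroblast, mural and macrophage lists each stayed at or below 0.058% in every pool. The counts of the atrial markers therefore go against an atrial myocyte identity of the cells labelled LA and RA, which are called atrial-labelled here. The isolation protocol given for both studies names only the ventricle as the piece that was cut out and minced. Erythroid markers (globins and Alas2) made up 2.68% in LA and 4.98% in RA, against 1.21% in LV and 1.30% in RV cells, and were at 0.002% in fixed and 0.052% in live cells. In all, 2 LA cells and 1 RA cell held more than 0.5% mesothelial marker RNA. The 2 LA cells supplied 16.9% of the nuclear-encoded UMIs of the LA pool, and another RA cell, of library C, supplied 27.9% of the RA pool. The 2 LA cells were in libraries B and C, with 102715 and 61197 gene UMIs. Values of LA in these libraries, and of RA in library C, therefore lean on single cells. The 6-base cell barcodes were used again in every library, but the 332 full names of library and cell barcode were all distinct, and the studies shared none. In such pools fewer cells of a type and less RNA per cell cannot be told apart.

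Together the 47 members made up 5.63% (5.59 to 5.67) of nuclear-encoded UMIs in atrial-labelled cells and 5.70% (5.68 to 5.72) in ventricular-labelled cells. By chamber the share was 5.36% in LA and 6.16% in RA, against 5.69% in LV and 5.71% in RV cells. Without the 3 mesothelial-rich cells it was 6.23% in LA and 6.19% in RA cells, and 6.22% (6.17 to 6.26) in all atrial-labelled cells, so the order of LA and RA, and that of atrial-labelled and ventricular-labelled cells, turned with these cells. Complexes II, III, IV and V then made up 0.313, 1.05, 1.89 and 2.91% in atrial-labelled cells, each above its share in ventricular-labelled cells given below. These are shares of summed UMIs, and a single RA cell held 27.9% of the RA pool. The median share of the members per kept cell, mesothelial-rich cells included, had the other order. It was 5.35% in LA and 4.18% in RA, against 6.11% in LV and 6.02% in RV cells. In the other study the members' share of summed UMIs was 2.83% (2.81 to 2.85) in fixed and 2.93% (2.90 to 2.96) in live cells. The studies were counted separately, and levels are not compared between them. All values are counts per 1000000 nuclear-encoded UMIs (CPM), with the mitochondrially encoded genes outside the total. SCRB-seq counts each transcript once, at its 3′ end, so CPM of different genes are compared without dividing by length.

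**Figure D1:**
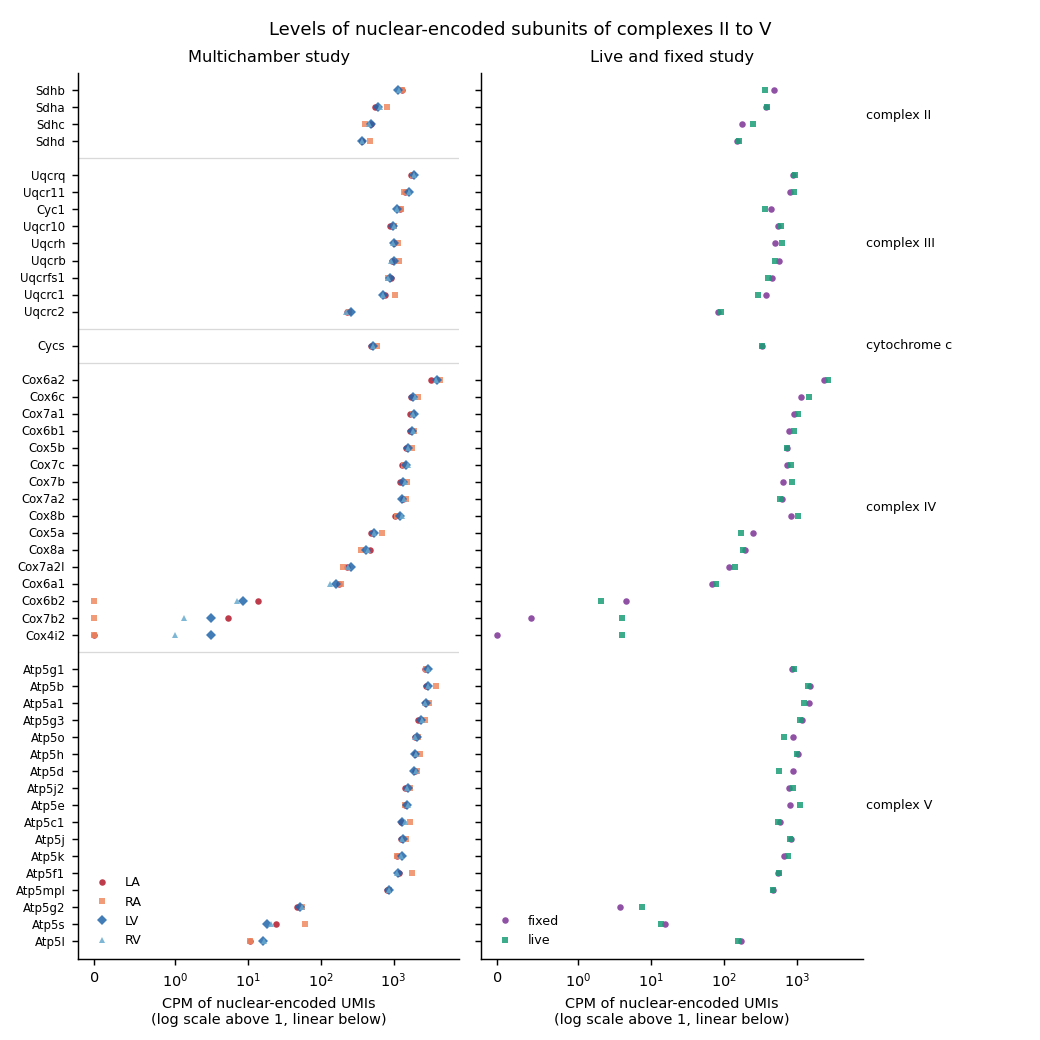
Level of each member as CPM of nuclear-encoded UMIs (logarithmic above 1 CPM, linear below) in each pool, with members grouped by complex. In the chamber pools Cox6b2, Cox7b2, Cox4i2, Atp5g2, Atp5s and Atp5l stand far below the others of their complex, with Atp5l at 10.7 CPM in the atrial-labelled and 16.6 CPM in the ventricular-labelled pool.

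Complex II had the smallest share of the 4 complexes. Its 4 genes together made up 0.283% of nuclear-encoded UMIs in atrial-labelled cells and 0.265% in ventricular-labelled cells, and 0.120% in fixed and 0.116% in live cells. Sdhb, the iron-sulfur subunit, was the highest, with 1302 CPM in LA and 1304 in RA, against 1160 in LV and 1171 in RV cells. Sdha, the flavoprotein that holds the succinate site, had 564 CPM in LA and 819 in RA, against 616 in LV and 650 in RV cells. The membrane anchors Sdhc and Sdhd were the lowest, with 497 and 374 CPM in the LA pool and 404 and 472 in the RA pool, against 493 and 369 in LV and 467 and 367 in RV cells. The 4 subunits are built into the complex in equal numbers, while the UMI level of Sdhb was above that of Sdhc and Sdhd together in each chamber pool. In fixed cells Sdhb had 487 CPM (460 to 516), above Sdha with 379 CPM (355 to 405). In live cells Sdhb had 363 CPM (333 to 395) and Sdha 384 CPM (353 to 417). These last intervals overlap, so the order of Sdhb and Sdha in live cells is open.

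Complex III made up 0.947% of nuclear-encoded UMIs in atrial-labelled and 0.945% in ventricular-labelled cells, and 0.468% in fixed and 0.476% in live cells. Its most abundant genes were Uqcrq and Uqcr11, both small subunits without a redox centre. Uqcrq had 1762 CPM in LA and 1874 in RA, against 1899 in LV and 1882 in RV cells, and Uqcr11 had 1421, 1385, 1643 and 1648 CPM in the same order. The redox subunits Cyc1 (cytochrome c1) and Uqcrfs1 (the Rieske iron-sulfur protein) had 1238 and 905 CPM in atrial-labelled cells, against 1117 and 872 CPM in ventricular-labelled cells. The core protein Uqcrc2 was the lowest, with 232 CPM in atrial-labelled cells and 242 CPM in ventricular-labelled cells. Its partner Uqcrc1 had 868 CPM in atrial-labelled cells and 716 CPM in ventricular-labelled cells. The last 300 bases of Uqcrc2 are also part of Pdzd9, so reads from that stretch could be withheld or divided, depending on how overlapping genes were counted. Cycs, the mobile carrier between complexes III and IV, had 485 CPM in LA and 589 in RA, against 531 in LV and 530 in RV cells, and 334 CPM in both fixed and live cells.

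Complex IV made up 1.72% (1.69 to 1.74) of nuclear-encoded UMIs in atrial-labelled cells and 1.80% (1.79 to 1.81) in ventricular-labelled cells. It made up 0.939% (0.927 to 0.951) in fixed cells. In live cells it made up 1.07%. Cox6a2, the muscle-type form of subunit VIa, was the most abundant member of all in each of the 6 pools. It had 3310 CPM in LA and 4297 in RA, against 3968 in LV and 3790 in RV cells, and 2343 CPM in fixed cells, against 2689 CPM in live cells. Cox6c, another small structural subunit, had 1763 CPM in LA and 2146 in RA, against 1874 in LV and 1974 in RV cells. Cox7b, a subunit without a muscle-type partner, had 1338 CPM in atrial-labelled and 1389 CPM in ventricular-labelled cells. Cox7a2l, known as a factor that joins complexes III and IV into supercomplexes, was lower, with 221 CPM in atrial-labelled and 247 CPM in ventricular-labelled cells.

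Complex V made up 2.63% (2.61 to 2.66) of nuclear-encoded UMIs in atrial-labelled and 2.64% (2.62 to 2.65) in ventricular-labelled cells, the largest share of the 4 complexes. In fixed cells it made up 1.27%, against 1.23% in live cells. Its most abundant genes in the ventricular-labelled pool were Atp5g1, which encodes the c ring, and Atp5b, the catalytic beta subunit. Atp5g1 had 2740 CPM in LA and 2804 in RA, against 3019 in LV and 2958 in RV cells. Atp5b had 2761 CPM in LA and 3789 in RA, against 2954 in LV and 2976 in RV cells. The alpha subunit alternates with beta in the catalytic head, and its gene, Atp5a1, had 2840 CPM in atrial-labelled cells, against 2759 CPM in ventricular-labelled cells. The single copy subunits of the catalytic head differed from each other: the delta gene Atp5d had 2022 CPM and the epsilon gene Atp5e 1419 CPM in atrial-labelled cells, against 1991 and 1571 CPM in ventricular-labelled cells.

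A group of 3 genes of complex V stood far below the others. Atp5g2 had 49.9 CPM in atrial-labelled and 53.6 CPM in ventricular-labelled cells. Atp5s, known as coupling factor B, had 37.0 CPM in atrial-labelled and 19.6 CPM in ventricular-labelled cells. Atp5l, the g subunit of the membrane part, had 10.7 CPM in atrial-labelled and 16.6 CPM in ventricular-labelled cells, but 174 CPM in fixed, against 155 CPM in live cells. Atp5l and Atp5g2 are 2 of 8 members whose last 300 bases match another gene at 95% identity or more over at least 200 bases. The Atp5g2 end matches the pseudogene Gm10175 over 296 bases at 100.0% identity, and Gm10175 had 27.1 CPM in atrial-labelled, 43.4 in ventricular-labelled, 214 in fixed and 153 in live cells. The levels of these 8 members (Uqcrc2, Cox6a1, Cox7c, Atp5g2, Atp5h, Atp5k, Atp5l and Atp5o) are uncertain, because a read that fits both copies can be dropped, divided or given to either.

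In complex IV, 3 subunits have a muscle-type and a ubiquitous form, and the share of the muscle-type form does not depend on the total used for scaling. Cox6a2 took nearly all UMIs of its pair: 94.8% in LA and 95.8% in RA, against 96.1% in LV and 96.6% in RV, 97.1% in fixed and 97.2% in live cells. Cox8b took 69.3% of Cox8a and Cox8b UMIs in LA and 75.4% in RA, against 74.6% in LV and 74.3% in RV, and took 80.8% in fixed and 84.8% in live cells. Cox7a1 took the least: 55.7% of Cox7a1 and Cox7a2 UMIs in LA and 55.0% in RA, against 59.5% in LV and 56.5% in RV, and took 59.4% in fixed and 64.3% in live cells. The order of the 3 pairs was therefore the same in every pool. Cox7a2, the ubiquitous form, remained abundant beside Cox7a1, with 1392 CPM in atrial-labelled and 1353 CPM in ventricular-labelled cells. Cox6a1 had only 182 CPM in atrial-labelled and 147 CPM in ventricular-labelled cells, and Cox8a 433 CPM in both.

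**Figure D2:**
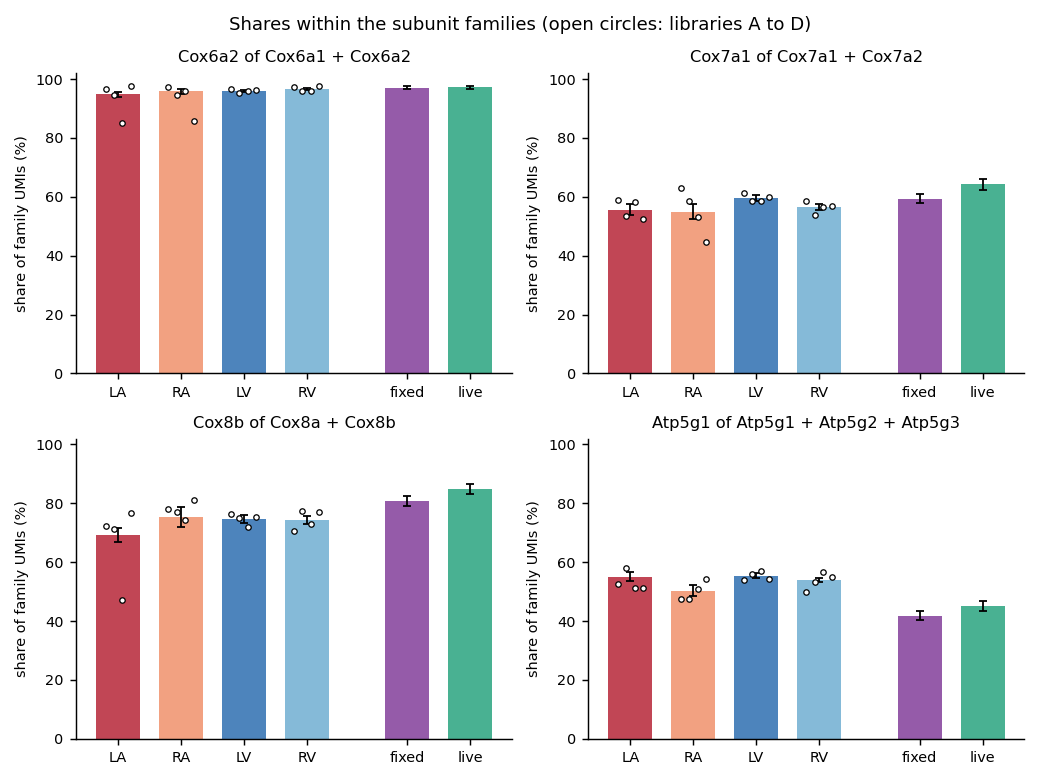
Share of a subunit family's UMIs taken by Cox6a2, Cox7a1, Cox8b and Atp5g1 in each pool, in percent. Bars give the pool with its exact 95% interval, and open circles give libraries A to D. The LA circle at 47.1% for Cox8b and the one at 85.2% for Cox6a2 are library C.

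The mesothelial-rich cells weighed on these shares in the LA pool. The share of Cox8b in LA libraries A to D was 72.2, 71.2, 47.1 and 76.6%, against 78.0, 77.2, 74.3 and 81.0% in RA libraries, so LA was lower than RA in each. The RA values rest on few UMIs, with 688 of the pair over all RA libraries, and only 8 RA cells held at least 10. Without the mesothelial-rich cells the LA share was 73.5%, against 75.4% in RA cells. Weighting each cell equally turned the order round, with 70.0% in LA, against 65.8% in RA cells, and so did read counts, with 65.1% in LA, against 63.6% in RA cells. In the LA cell of library B with 0.935% mesothelial RNA, 5 Cox8b UMIs stood beside 37 of Cox8a, 19 Cox6a2 UMIs beside 26 of Cox6a1, and 4 Cox7a1 UMIs beside 26 of Cox7a2. In that of library C, 5 Cox8b UMIs stood beside 49 of Cox8a and 11 Cox7a1 UMIs beside 34 of Cox7a2. Members made up 0.915% and 1.35% of nuclear-encoded UMIs in these 2 cells. The median LA cell of at least 5000 UMIs had 6.19%. In the live and fixed study the share of Cox8b was lower in the fixed pool, at 80.8% (79.2 to 82.3), than in the live pool, at 84.8% (83.0 to 86.4). The share of Cox7a1 was likewise lower in the fixed pool, at 59.4% (57.8 to 61.0), than in the live pool, at 64.3% (62.4 to 66.2), while the intervals of Cox6a2 overlapped. When reads were counted in place of UMIs, Cox7a1 took 45.8% in fixed and 50.8% in live cells, and 33.6 to 42.8% in the chamber pools. Which form of subunit VIIa was in the majority thus depended on the count used in every pool except the live one.

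The c subunit of complex V comes from 3 genes that encode the same mature protein with different import sequences. Atp5g1 supplied 55.1% of their UMIs in LA and 50.3% in RA, against 55.4% in LV and 53.9% in RV cells, and Atp5g3 supplied 43.9, 48.7, 43.6 and 45.1% in the same order. In the other study Atp5g3 was the larger, at 58.0% in fixed and 54.5% in live cells, while Atp5g1 supplied 41.9% in fixed and 45.1% in live cells. Atp5g2 supplied 0.948% in LA and 0.992% in RA, against 0.965% in LV and 0.994% in RV cells, and 0.181% in fixed and 0.363% in live cells. Atp5g2 is the member with the pseudogene copy named above.

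The isoforms that belong to other tissues were close to the floor of detection. Cox4i2, the form of subunit IV known from lung and smooth muscle, had 0 UMIs in LA and RA, 8 in 3 LV cells, 3 in 3 RV cells, 0 in fixed and 6 in 2 live cells. By the limit of 3 counts, which is not a Clopper-Pearson bound, a count of 0 allows up to 3.21 CPM in LA, 6.38 CPM in RA and 1.24 CPM in fixed cells. Each of the cells with a Cox4i2 UMI also held a mural marker UMI, as did 65 of 91 LV, 68 of 90 RV and 11 of 31 live cells in all. Cox6b2 and Cox7b2, the testis-type forms of subunits VIb and VIIb, had 43 and 12 UMIs over all ventricular-labelled cells. Of the 22 Cox6b2 UMIs in LV cells, 18 came from 1 cell. The ubiquitous Cox6b1 had 1779 CPM in atrial-labelled and 1840 CPM in ventricular-labelled cells.

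Atrial-labelled cells were compared with ventricular-labelled cells to see whether the complexes differ between these labels. Of 45 members with at least 30 UMIs over both pools, 1 was at least 1.5-fold higher in the atrial-labelled pool, where 12.6% of 11682 measured genes were. None was at least 1.5-fold lower, where 15.1% of measured genes were. The median log2 ratio, computed after adding 5 CPM to each value, was -0.01 for the members and -0.06 for all measured genes. By complex the medians were 0.09 for complex II, 0.05 for complex III, -0.04 for complex IV and 0.01 for complex V. Complex I was taken by name as every gene called Nduf-, assembly factors included. Its 44 measured genes had a median of -0.05, with 0 at least 1.5-fold higher and 2 lower. Among genes with at least 1000 UMIs over both pools, the quartiles of the log2 ratio were -0.07 and 0.05 for 41 members, against -0.23 and 0.09 for all 914 genes. Of these 914 genes, 1.86% were at least 1.5-fold higher and 4.16% lower.

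**Figure D3:**
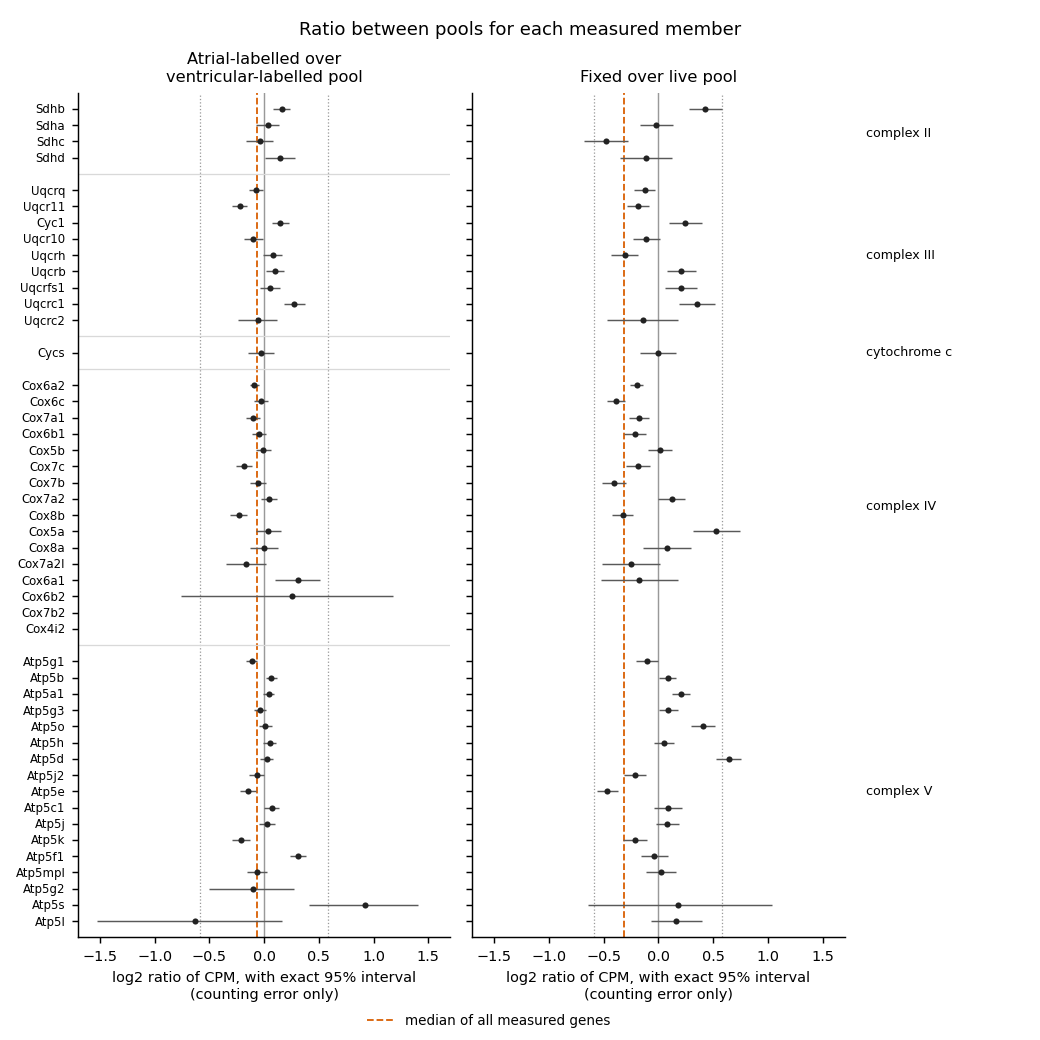
Log2 ratio of CPM for each measured member, atrial-labelled over ventricular-labelled pool on the left and fixed over live pool on the right, plotted without a pseudocount, with exact 95% intervals for counting error. Dotted lines mark 1.5-fold and the dashed line the median of all measured genes, which is -0.06 on the left and -0.31 on the right. In the scaling shown the points of complex IV lie mostly below 0 on the right, with a median of -0.19, which was 0.23 with TMM factors.

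The widest differences between these pools were in genes of few UMIs or of modest size. Atp5s had 52 UMIs in atrial-labelled cells, against 109 in ventricular-labelled cells, and was 1.89-fold (1.33 to 2.65) higher. Its levels in libraries A to D were 36.8, 16.6, 66.0 and 11.0 CPM in atrial-labelled cells, against 18.6, 16.7, 27.3 and 14.6 CPM in ventricular-labelled cells, so it was higher in only 2 of 4 libraries. Without the largest cell of each pool its log2 ratio was 0.31, against 0.77 with all cells. Atp5l was the lowest, at a log2 ratio of -0.46, with 15 and 92 UMIs and an interval of 0.35 to 1.12 for the ratio.

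Atp5f1, the b subunit of the stalk that holds the ATP synthase head, was higher in the atrial-labelled pool in each library. It had 1599, 1085, 1490 and 1546 CPM in atrial-labelled cells of libraries A to D, against 1173, 939, 1185 and 1166 CPM in ventricular-labelled cells. LA and RA did not share this direction in every library. In library C it had 472 CPM in LA and 1847 in RA, against 1200 in LV and 1174 in RV cells. There the 6 LA cells included the mesothelial-rich cell of 61197 gene UMIs. The 17 RA cells included a cell of 183391 gene UMIs, so both values lean on single cells. In library D Atp5f1 had 1974 CPM in LA and 789 in RA, against 1382 in LV and 977 in RV cells. The pooled ratio was 1.24 (1.18 to 1.30). Cox6a1, at 1.24 (1.07 to 1.43), Uqcrc1, at 1.21 (1.13 to 1.29), and Sdhd, at 1.11 (1.01 to 1.21), were also higher in 4 of 4 libraries. Each also had a library in which an atrial label lay below both ventricular labels. With Atp5f1 this makes 8.89% of the measured members, against 2.62% of all measured genes. Shares of this kind are not like for like, because all measured genes include many of few UMIs. The all-gene medians were -0.23, -0.05, -0.17 and -0.62 in libraries A to D, against 0.11, -0.10, -0.01 and -0.23 for the members. Another 6 members, or 13.3%, were lower in 4 of 4 libraries, against 14.7% of all measured genes: Cox8b, Uqcr11, Atp5k, Atp5e, Cox7a1 and Uqcr10. The lowest of these was Cox8b, with 1198, 1072, 1009 and 833 CPM in atrial-labelled cells of libraries A to D, against 1231, 1240, 1281 and 1294 CPM in ventricular-labelled cells, a ratio of 0.85 (0.80 to 0.90). Atp5f1 stayed above 0 on the log2 scale, from 0.22 to 0.46, under each of the alternatives tried. With all gene UMIs as the total the members' median was 0.15, against -0.01. That shift exceeds the size of the pooled log2 ratios of Atp5e, Cox7a1 and Uqcr10, whose direction turns with it, but not those of Cox8b, Uqcr11 and Atp5k, at -0.23, -0.22 and -0.21. The atrial-labelled pool also held 3.45% erythroid and 0.117% mesothelial RNA, against 1.26% and 0.006% in the ventricular-labelled pool, and the part of these in the differences was not tested. With each cell weighted equally, the members' median was -0.30, against -0.20 for all measured genes, and 6 members were at least 1.5-fold lower, as were 25.8% of all measured genes.

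The LA pool was compared with the RA pool next, by label only, since the markers above go against an atrial identity of these cells. Of 43 measured members 0 were at least 1.5-fold higher in LA, where 28.5% of 5715 genes were, and 1, Atp5s, was lower, where 15.5% of genes were. The number lower was 3 with median-of-ratios factors, 4 with TMM factors, 6 in cells with at least 20000 UMIs, and 8 both on read counts and without cells over 2% RNA of other cell types, where 17.5, 19.9, 18.3, 24.7 and 21.3% of genes were. The number higher was 4 with each cell weighted equally, where 30.0% of genes were. The members' median log2 ratio was -0.18, against 0.10 for all genes, and 37 of the 43 lay below 0. All-gene medians depended on depth here: for 173 genes with at least 1000 UMIs the median was -0.14, close to the -0.18 of the 32 members among them. Of these 173 genes, 2.31% were at least 1.5-fold higher and 8.09% lower. The medians by complex were -0.17 for complex II, -0.09 for complex III, -0.17 for complex IV and -0.21 for complex V.

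The size of this difference varied between the libraries. The members' median was -0.05 in library A, -0.05 in library B, -0.87 in library C and 0.93 in library D, and that of all measured genes was 0.17, 0.60, -0.22 and 0.0 in the same order, where LA held 23, 22, 6 and 5 cells and RA held 11, 8, 17 and 8. Relative to these all-gene medians, the members were lower in libraries A, B and C and higher in library D. Genes counted as measured by their pooled UMIs, so a gene without UMIs in a library has a log2 ratio of 0 there. The all-gene medians of single libraries, with 0.0 in library D, are therefore no firm reference for the members. Without library C the members' pooled median was 0.04, against 0.21 for all genes, and without the 3 mesothelial-rich cells it was 0.01, against 0.003 for all genes. Atp5s had 24.6 CPM in LA cells, from 23 UMIs, and 61.7 CPM in RA cells, from 29 UMIs, a ratio of 0.40 (0.22 to 0.71). Its log2 ratio of -1.17 became 0.83 without library C and 0.34 without the largest cell of each pool. Atp5f1 had 1191 CPM in LA, against 1774 CPM in RA cells, a ratio of 0.67 (0.61 to 0.74), and was lower in 3 of 4 libraries. With each cell weighted equally its log2 ratio was -0.09, against -0.57 in the pools.

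Cox8a was the one member higher in LA in all 4 libraries, which is 2.33% of the measured members, against 6.00% of all measured genes, and no member was lower in all 4, against 3.66% of all measured genes. It had 454, 435, 745 and 309 CPM in LA cells of libraries A to D, against 357, 311, 392 and 121 CPM in RA cells, a pooled ratio of 1.31 (1.09 to 1.57). On read counts its log2 ratio was -0.16, against 0.38 on UMIs, so the direction depended on the count. Sdhc, at a ratio of 1.23 (1.04 to 1.46), was higher in 3 of 4 libraries, and its log2 ratio was -0.06 without library A.

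Left and right ventricle, the 2 deepest pools with 2566040 and 2988611 nuclear-encoded UMIs, differed least. No member of 45 was at least 1.5-fold higher in LV, where 11.4% of 10812 genes were, and none was lower, where 7.18% were. Most members are abundant, and at that depth such calls were rare in general. Of the 748 genes with at least 1000 UMIs over both pools, 40 of them members, 0.401% were higher and 0.0% lower. The members' log2 ratios ran from -0.14 to 0.28 with a median of -0.01, against 0.03 for all genes. Medians by complex were -0.003 for complex II, 0.01 for complex III, -0.04 for complex IV and -0.01 for complex V. The widest was Cox6a1, with 163 CPM in LV and 134 CPM in RV cells, a ratio of 1.22 (1.06 to 1.40), higher in LV in 4 of 4 libraries, as were 6.42% of all measured genes, and one of the genes with a near-identical copy. By library Cox6a1 had 125, 173, 195 and 161 CPM in LV cells, against 116, 153, 165 and 89.3 CPM in RV cells. Uqcrc2 followed, with 261 CPM in LV and 226 CPM in RV cells, a ratio of 1.16 (1.04 to 1.29). At the other end stood Atp5s, at 18.3 CPM in LV and 20.7 CPM in RV cells, and Atp5c1, the gamma subunit that turns within the head, at 1288 CPM in LV and 1418 CPM in RV cells, a ratio of 0.91 (0.87 to 0.95). The members' medians in single libraries ran from -0.30 in library A to 0.18 in library D.

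Fixed cells were compared with live cells to see whether these transcripts differ after ethanol fixation. Of 43 measured members 1, Atp5d, was at least 1.5-fold higher in the fixed pool, where 7.54% of 7860 genes were. None was at least 1.5-fold lower, where 33.8% of genes were. The number higher was 5 with all gene UMIs as the total, 9 with TMM factors, 17 with median-of-ratios factors and 6 on read counts, where 12.1, 18.4, 24.2 and 17.4% of genes were, and 0 with protein-coding UMIs as the total, where 7.77% were. The members' median log2 ratio was -0.02, against -0.31 for all genes. Among the more abundant genes the gap was smaller: for the 303 genes with at least 1000 UMIs over both pools the median was -0.03, and for the 34 members among them it was -0.01. Of these 303 genes, 10.6% were at least 1.5-fold higher and 20.1% lower.

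The scaling moved all these values together. With all gene UMIs as the total, in which mitochondrially encoded RNA was 14.9% of the fixed and 28.3% of the live pool, the members' median was 0.23 and that of all genes -0.10. With TMM factors they were 0.39 and 0.03, with median-of-ratios factors 0.54 and 0.15, and with read counts 0.19 and -0.15. The members therefore stood 0.29 above the median of all genes in the main scaling and 0.33 to 0.39 above it in these 4. Values of single genes below are in the main scaling, to which each of the UMI scalings adds nearly the same shift for all genes. Among the alternatives with a gene minimum of 10 to 100 UMIs, this gap was smallest, at 0.18, with each cell weighted equally and with a pseudocount of 20 CPM. It was smaller still among genes of more UMIs. With a minimum of 500 UMIs the medians were -0.003 for the members and -0.10 for all genes. With a minimum of 1000 UMIs they were -0.01 and -0.03. The largest cell held 9.05% of the fixed and 14.9% of the live pool.

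Complex V had a median log2 ratio of 0.08, with 11 of 16 measured genes above 0. Complex IV had a median of -0.19, with 4 of 13 above 0, and the intervals of both medians, taken over genes, held 0. The medians of complexes III and II were -0.11 and -0.06. Summed over genes, complex V was 1.27% in fixed cells, against 1.23% in live cells, and complex IV was 0.939% in fixed cells, against 1.07% in live cells. Complex V stood above complex IV in the main scaling, with all gene UMIs, TMM or median-of-ratios factors, and on read counts. Relative to the all-gene median, complex V stood at 0.39 and complex IV at 0.12 in the main scaling. On read counts complex V stood at 0.48 and complex IV at 0.10. The Nduf- genes taken for complex I, with a median of 0.10, had 3 of 43 at least 1.5-fold higher and 1 lower. With 1 pool per condition, a difference between pools and one between conditions cannot be told apart.

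Atp5d, the delta subunit of the catalytic head, had 2136 UMIs in fixed cells, against 838 in live cells. That is 881 CPM in fixed, against 565 CPM in live cells, a ratio of 1.56 (1.44 to 1.69). Cox5a had 249 CPM in fixed, against 173 CPM in live cells, a ratio of 1.44 (1.24 to 1.68), and is the subunit of complex IV known to bind a thyroid hormone metabolite. Sdhb, at 1.34 (1.21 to 1.49), Atp5o, the stalk subunit that confers oligomycin sensitivity, at 1.33 (1.23 to 1.43), and Uqcrc1, at 1.28 (1.14 to 1.43), came next. The lowest were Sdhc, with 179 CPM in fixed, against 250 CPM in live cells, a ratio of 0.72 (0.62 to 0.83), and Atp5e, with 811 CPM in fixed, against 1120 CPM in live cells, a ratio of 0.72 (0.68 to 0.77). With median-of-ratios factors the log2 ratios of these 2 genes were 0.08 and 0.10, against -0.47 and -0.46 in the main scaling. Cox7b, at 0.76 (0.70 to 0.81), and Cox6c, at 0.76 (0.72 to 0.81), stood beside them. The counting intervals lay wholly above 1 for 11 and wholly below 1 for 15 of the 43 members, so genes of the same complex lay on both sides. In complex II, Sdhb was higher and Sdhc lower in the fixed pool, while Sdha had 379 CPM in fixed, against 384 CPM in live cells.

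Short transcripts were on the low side among the members in this comparison. The 12 with a transcript under 600 bases had a median log2 ratio of -0.18, with 9 below 0, and the 31 longer ones had a median of 0.03, with 14 below 0. Among all protein-coding genes the direction was the other way, with a median of -0.19 for 100 genes under 600 bases and -0.35 for 6488 longer ones. Between atrial-labelled and ventricular-labelled pools the 13 short members had a median of -0.10 and the 32 longer ones of 0.02. Between LA and RA the direction was the other way, with -0.06 for 11 short and -0.21 for 32 longer members, and between LV and RV the medians were -0.005 for 13 short and -0.010 for 32 longer members. The part of transcript length in the ratios was not tested.

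Mitochondrially encoded partners were set beside the nuclear ones. For complex III, mt-Cytb had 4.64 UMIs per UMI of the 9 nuclear genes in LA and 4.80 in RA, against 4.67 in LV and 4.95 in RV cells, and 5.23 in fixed, against 6.71 in live cells. For complex IV, mt-Co1, mt-Co2 and mt-Co3 together had 1.18 UMIs per nuclear UMI in LA and 1.07 in RA, against 1.40 in LV and 1.46 in RV cells, and 1.25 in fixed, against 1.60 in live cells. In RV cells 78846 of these 78861 UMIs were mt-Co1, and mt-Co3 was at 0 in every pool. For complex V, mt-Atp6 and mt-Atp8 had 0.357 UMIs per nuclear UMI in fixed and 0.461 in live cells, but 0.001 in each chamber pool. How reads were assigned to neighbouring mitochondrial genes is not stated, and no level of mt-Atp6 or mt-Co3 is read from these values. For complexes III and IV the ratio was lower in fixed than in live cells.

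Single cells varied far more than counting. Among cells with at least 5000 gene UMIs, the share of the members ran from 1.24 to 5.67% in 34 fixed cells, with a median of 2.69%, against 1.75 to 4.74% in 31 live cells, with a median of 3.03%. It ran from 0.65 to 8.38% in 36 LA cells, with a median of 6.19%, and from 1.56 to 8.10% in 18 RA cells, with a median of 5.28%. In 89 LV cells it ran from 0.722 to 9.21%, with a median of 6.13%, and in 87 RV cells from 0.943 to 8.26%, with a median of 6.02%. The coefficient of variation was 25.1% in LV and 23.5% in RV cells, and 24.9% in LV and 23.3% in RV cells after counting error was taken off. It was 39.1% in LA, 37.1% in RA, 36.0% in fixed and 28.8% in live cells, and 33.3% in the 34 LA cells without the mesothelial-rich ones.

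Of the 4 complexes, complex II varied most from cell to cell in LV, RV and live cells after counting error was taken off. Its coefficient of variation was then 33.0% in LV cells, against 26.6% for complex III, 28.8% for complex IV and 25.2% for complex V. In live cells it was 43.2%, against 33.5, 34.8 and 25.8%. In fixed cells complex IV varied most, at 43.2%, with complex II at 37.3%, and complex IV also varied most in LA and RA cells, at 46.3% and 43.6%, and at 41.7% in LA cells without the mesothelial-rich ones. Complex II sums 4 genes, against 9, 16 and 17 for complexes III, IV and V. The part of gene number in this order was not tested.

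**Figure D4:**
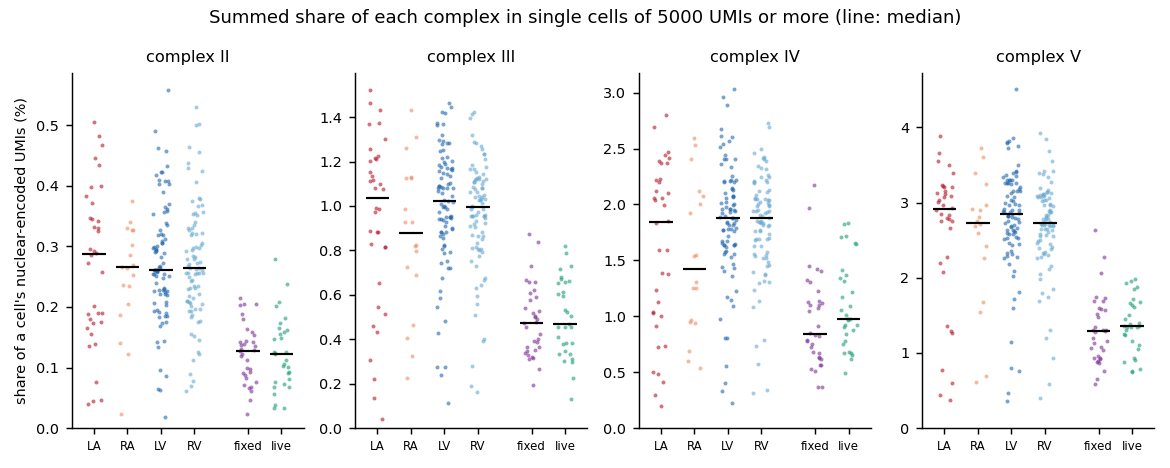
Summed share of each complex in the nuclear-encoded UMIs of single cells with at least 5000 gene UMIs, in percent, by pool, with a line at the median. Each point is a cell, each panel has its own axis from 0, and the pools of a study overlap in every panel.

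The shares of complexes III, IV and V moved together over cells, and complex II less so. Over 89 LV cells Pearson's r was 0.82 between complexes III and V (Spearman's rho 0.71), and 0.49 between complexes II and V (rho 0.39). Over 34 fixed cells these were 0.91 (rho 0.87) and 0.62 (rho 0.72), and over 31 live cells 0.72 (rho 0.70) and 0.52 (rho 0.57). Complex II had the fewest UMIs, and these values are not corrected for counting error. The members also followed the Nduf- genes taken for complex I, with r from 0.86 in live to 0.96 in LA cells. They likewise followed the myocyte markers, with r from 0.71 in LV to 0.93 in LA cells. Without the mesothelial-rich cells these values were 0.95 and 0.91 in LA cells. In the 18 RA cells they ran against erythroid markers, with r of -0.75 (rho -0.73). All cells of a pool share their library preparation and the shares have a common total, so these are descriptions without a test.

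In live cells a higher mitochondrially encoded share went with a lower share of the members. Over 31 live cells r was -0.80 (rho -0.82), and over 34 fixed cells it was 0.22 (rho 0.24). Without the 2 cells farthest from the median mitochondrial share it was -0.77 (rho -0.79) in live and 0.21 (rho 0.21) in fixed cells. Among 23 live cells with at least 20000 UMIs it was -0.83 (rho -0.86). The mitochondrial share ran from 8.20 to 23.7% in fixed cells and from 18.6 to 39.9% in live cells, so the ranges overlap only in part. In the chambers r was 0.38 over 36 LA cells, -0.39 over 18 RA cells, -0.09 over 89 LV cells and -0.35 over 87 RV cells, and without the 2 farthest cells it was 0.49, 0.10, -0.20 and -0.51 in the same order. Without the mesothelial-rich cells it was 0.07 over 34 LA cells, so the LA value rested on these 2 cells. The member share is taken of nuclear-encoded UMIs only, so the mitochondrial reads do not enter its total.

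**Figure D5:**
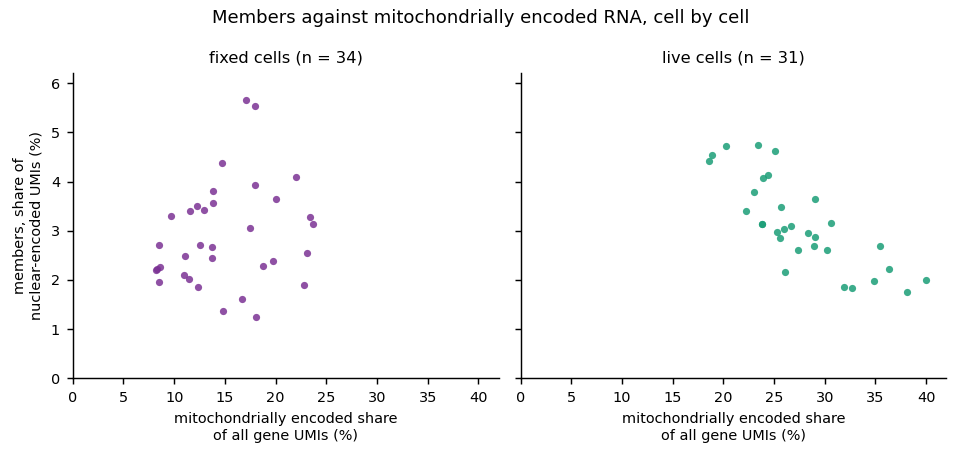
Share of the 47 members in nuclear-encoded UMIs, in percent, against the mitochondrially encoded share of all gene UMIs, in percent, for fixed cells on the left and live cells on the right, each point a cell with at least 5000 UMIs. Live cells fall along a descending band, with r of -0.80, and fixed cells do not, with r of 0.22.

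The 35 assembly factors of these complexes, which build them but are not part of them, were set beside them from a fixed list. In the atrial-labelled against the ventricular-labelled pool 33 were measured, of which 3 were at least 1.5-fold higher and 2 lower, against 1 and 0 of 45 members and 12.6 and 15.1% of all measured genes. In the fixed against the live pool 28 were measured, of which 5 were higher and 6 lower, where 7.54 and 33.8% of genes were. Between LA and RA 23 were measured, of which 4 were higher and 4 lower, where 28.5 and 15.5% of genes were. Between LV and RV 33 were measured, of which 2 were higher and 1 lower, where 11.4 and 7.18% of genes were. These are genes of few UMIs, which together made up 0.271% of nuclear-encoded UMIs in atrial-labelled and 0.264% in ventricular-labelled cells, and 0.138% in fixed and 0.143% in live cells.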

How the data were processed

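Single-cell UMI counts and read counts per Ensembl gene were deposited by the authors as 1 table pair per study. Per the submitters' processing notes, STAR 2.5.4b, featureCounts and GRCm38 were used; the sources used here do not give their settings, the annotation release or how UMIs were collapsed. Cell labels came from the deposited cell tables, whose percent columns were not used. The 45 barcode columns without a label were left out. Cells with under 1000 gene UMIs or 500 genes were dropped, and doublets were not called. Symbols came from GENCODE M21.

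UMIs were summed per label, since no animal is named, and divided by the nuclear-encoded UMIs of the pool (CPM). Log2 ratios used a pseudocount of 5 CPM, and genes with at least 30 UMIs over both pools counted as measured. With 1 pool per group no test was made. Depth was 470095 to 2988611 nuclear-encoded UMIs per pool. PCR reads behind UMIs are not independent, and intervals and floors of 3 counts cover counting error only. Every member is named by rule; single genes were described when at the ends of a comparison, above 1.5-fold or alike in 4 of 4 libraries. Members, lists and comparisons were chosen with earlier results of these data known.

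Alternatives were another total, TMM (edgeR 4.0.16) and median-of-ratios factors, read counts, pseudocounts, count minimums, cell filters and leaving out each library. The ratio step was tested on simulated data. Copies were sought with BLAST 2.17.0, and the rest used Python 3.11.15, pandas 2.3.3, scipy 1.17.1 and R 4.3.3.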

Additional observations from a re-analysis of the deposited data

How the results depend on the processing

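No paired analysis was possible because the labels name no animals or replicate numbers and no test was made. Libraries A to D hold cells of every chamber, and the values within each library are given above as a description. Of the summary results, 442 values stayed within their error or within 1.5 times the count and 133 moved; of the single genes, 232 stayed, 50 moved and 2 reversed. The live and fixed study is a single library, so leaving one out was not run there. Alternatives without mesothelial-rich cells (shares and values over cells included), without the largest cell of each pool and with protein-coding UMIs as the total were chosen after seeing the data. The cause of each shift was not tested. Depth limits the atrial-labelled pools most, and with 1 pool per group no alternative measures the spread between animals.

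For atrial-labelled against ventricular-labelled cells, the members' median log2 ratio of -0.01 became 0.15 with all gene UMIs as total, 0.054 with TMM factors, -0.30 with cells weighted equally, 0.057 in cells with at least 20000 UMIs, 0.054 without cells over 2% RNA of other cell types and 0.11 without mesothelial-rich cells. For complex II it became 0.24, -0.070 (equal weight), -0.049 (read counts) and 0.23 (without mesothelial-rich cells), and leaving out libraries gave -0.036 to 0.18. For complex III it became 0.21, -0.28 (equal weight) and 0.21 (without mesothelial-rich cells). For complex IV it became 0.12, -0.45 (equal weight), 0.049 (deep cells) and 0.078 (without mesothelial-rich cells). For complex V it became 0.16, 0.070 (TMM), -0.21 (equal weight), 0.13 (without mesothelial-rich cells) and 0.067 (without the largest cells). The number at least 1.5-fold lower, 0, became 6 with equal weight and 1 with read counts, pseudocount 1, deep cells, without other cell types' RNA or without mesothelial-rich cells, and was 0 to 1 without a library. The number higher, 1, became 0 with pseudocount 20 or without the largest cells and 2 without other cell types' RNA, and was 0 to 1 without a library.

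For LA against RA, the members' median of -0.18 became -0.31 with TMM factors, 0.18 with equal weight, -0.30 with read counts, -0.34 without other cell types' RNA, 0.014 without mesothelial-rich cells and -0.042 without the largest cells, and -0.27 to 0.040 without a library. The number lower, 1, became 4 with TMM, 3 with median-of-ratios, 8 with read counts, 6 in deep cells, 0 with a minimum of 100 UMIs, 8 without other cell types' RNA and 0 without the largest cells, and 1 to 5 without a library. The number higher, 0, became 4 with equal weight and 1 with read counts, a minimum of 10 UMIs or without the largest cells, and 0 to 1 without a library. Complex III became 0.31 (equal weight), 0.11 (without mesothelial-rich cells) and 0.052 (without the largest cells), and -0.29 to 0.16 without a library. Complex IV became 0.18, -0.34 (without other cell types' RNA) and 0.0057 (without mesothelial-rich cells), and -0.25 to 0.0020 without a library. Complex V became 0.13, -1.79e-05 (without mesothelial-rich cells) and -0.053 (without the largest cells), and -0.28 to 0.023 without a library. Atp5s, at -1.17, ran from -1.96 to 0.83 without a library, with the reversal without library C, and reversed to 0.34 without the largest cells.

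For LV against RV, the members' median of -0.01 became 0.044 (all UMIs), -0.060 (TMM), -0.10 (median-of-ratios) and 0.057 (read counts), and -0.081 to 0.086 without a library; the number higher, 0, was 0 to 1. Complex II became -0.10 (median-of-ratios) and 0.082 (read counts), and -0.11 to 0.097 without a library. Complex III became -0.038 (TMM) and -0.087 (median-of-ratios). Complex IV became -0.14, and -0.12 to 0.085 without a library. Complex V became 0.043 (all UMIs), -0.061 (TMM), -0.11 (median-of-ratios), 0.049 (equal weight) and 0.062 (read counts), and -0.084 to 0.085 without a library.

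For fixed against live cells, the members' median of -0.02 became 0.23 (all UMIs), 0.39 (TMM), 0.54 (median-of-ratios) and 0.19 (read counts). The number higher, 1, became 5, 9, 17 and 6 in the same order and 0 with the protein-coding total; the number lower, 0, became 1 with equal weight. Complex II became 0.49 (median-of-ratios), complex III 0.30 (TMM), 0.45 (median-of-ratios) and 0.24 (read counts), complex IV 0.23 and 0.37 (TMM, median-of-ratios), and complex V 0.31, 0.48, 0.63 and 0.33 (all UMIs, TMM, median-of-ratios, read counts).

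On read counts Cox6a2 took 90.7% of its pair in LA and 94.8% in RA, against 95.3% in LV and 95.2% in RV; Cox7a1 took 40.3, 33.6, 42.8 and 40.3%, and 45.8% in fixed and 50.8% in live cells; Cox8b took 65.1, 63.6, 63.5 and 64.3%, and 77.1% in fixed and 82.2% in live cells. With equal weight Cox6a2 took 92.2% in LA, 94.6% in RA and 96.2% in live cells, Cox7a1 52.2% in RA, and Cox8b 65.8% in RA and 86.6% in live cells. Without mesothelial-rich cells Cox6a2 took 96.1% and Cox8b 73.5% in LA.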
